A study of Mus musculus with 4 samples.

Results

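The tubulin glycylases are the enzymes of the tubulin tyrosine ligase-like (TTLL) family that attach glycine to tubulin, and their transcripts Ttll3, Ttll8 and Ttll10 were followed in the testes of Rfx2 mutant and control mice. The members were chosen by gene symbol, without the use of any measured value, although earlier results of these data were known. Each of the 3 was found among the 22311 gene symbols in the data, with a single entry in every sample. All 3 passed the filter on low values. Total RNA was sequenced from whole testes of 24-day-old male mice, with 2 samples of the Rfx2-/- genotype (mutant 1 and mutant 2) and 2 control samples (control 1 and control 2). In the mutants the exons that encode the DNA-binding domain of RFX2 were replaced with a neomycin-resistance cassette in every cell of the body, and the line came from a single embryonic stem cell clone. The sample labels call the controls wild type and give the strain of all 4 samples as DBA, whereas the methods of the study give heterozygous controls and a mixed genetic background. Which description holds was not tested. The comparison asks which transcripts depend on RFX2 at an age when, by the paper, round spermatids are abundant in both genotypes. At a slightly earlier age the paper reports a delay in some mutant mice, with fewer round spermatids than in the wild type. Whether the sequenced mutant samples were delayed was not tested.

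Glycylation is a modification of tubulin in which glycine residues are attached as side chains to glutamates near the C-terminal tails of alpha and beta tubulin. It is found mainly on the microtubules of cilia and flagella, and the axoneme of the sperm tail is rich in it. TTLL3 and TTLL8 are initiating enzymes, which attach the first glycine of a side chain, while TTLL10 in the mouse is an elongating enzyme that lengthens a side chain once it has been started. The same glutamates can carry glutamate side chains instead, which are made by other TTLL enzymes. RFX2 is a transcription factor of the regulatory factor X family, whose members bind the X-box motif in the promoters of many ciliary genes.

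The 3 genes lie on different chromosomes. In NCBIM37, the assembly known as mm9 to which the study aligned its reads, Ttll3 occupies chr6:113339254-113364577 on the plus strand. Ttll8 occupies chr15:88721063-88784848 and Ttll10 chr4:155408949-155433453, both on the minus strand. Their consensus coding transcripts in the GENCODE annotation of that assembly hold 13 exons and 2781 coding bases for Ttll3, 12 exons and 2496 coding bases for Ttll8, and 15 exons and 2025 coding bases for Ttll10.

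The sequence around the start site of these transcripts is shown because the transcription factor removed in the mutants belongs to a family that binds promoters. Each window of 300 bases runs from 250 bases before the start site to its first 50 bases, is written 5′ to 3′ on the strand of the gene, and lies in NCBIM37 at chr6:113342202-113342501 on the plus strand for Ttll3, at chr15:88784791-88785090 on the minus strand for Ttll8 and at chr4:155424877-155425176 on the minus strand for Ttll10. Capitals mark a match without mismatch to the standard X-box on either strand, with 6 bases in each arm and a gap of 0 to 3 bases.
Ttll3: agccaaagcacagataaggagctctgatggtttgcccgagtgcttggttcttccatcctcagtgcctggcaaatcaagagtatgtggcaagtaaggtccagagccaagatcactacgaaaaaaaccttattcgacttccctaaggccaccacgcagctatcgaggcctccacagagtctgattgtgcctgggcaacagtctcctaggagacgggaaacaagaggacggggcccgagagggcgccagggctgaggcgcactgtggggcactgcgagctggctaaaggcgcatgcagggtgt
Ttll8: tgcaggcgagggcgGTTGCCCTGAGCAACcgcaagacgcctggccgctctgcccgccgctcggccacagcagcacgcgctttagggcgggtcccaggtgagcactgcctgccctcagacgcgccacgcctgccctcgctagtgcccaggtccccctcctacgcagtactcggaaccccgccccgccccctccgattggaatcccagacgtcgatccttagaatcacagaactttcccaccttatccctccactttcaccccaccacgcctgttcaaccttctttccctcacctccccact
Ttll10: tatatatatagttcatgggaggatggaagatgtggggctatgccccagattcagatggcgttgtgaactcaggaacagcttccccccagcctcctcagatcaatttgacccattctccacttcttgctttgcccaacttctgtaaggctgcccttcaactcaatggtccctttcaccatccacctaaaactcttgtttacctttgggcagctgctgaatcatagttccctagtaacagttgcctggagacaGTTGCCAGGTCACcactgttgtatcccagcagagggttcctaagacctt
The window of Ttll8 held 1 X-box at positions -236 to -222 relative to the start site, on the strand of the gene and with a gap of 3 bases. The window of Ttll10 held 1 X-box on the opposite strand, at bases 2 to 14 of the transcript, with a gap of 1 base. No match was found in the window of Ttll3, also with 1 mismatch allowed, and none without mismatch within 1000 bases to each side of its start site. For each gene this covers the start of the consensus coding transcript alone. Ttll3 has 11 annotated transcripts, and the annotated gene begins at chr6:113339254, upstream of the stretch searched. A match without mismatch was present in 1.36% of the 38065 windows of the same length around the starts of protein-coding transcripts, and a match with up to 1 mismatch in 10.9% of them. Within 1000 bases to each side, 3.70% of the starts had a match without mismatch. These matches describe letters in a window and do not show binding, and the absence of a match says only that these letters were not found there. The paper searched in another way, with a weight matrix over a longer stretch conserved between human and mouse. Its text does not say whether that search found a site for Ttll3.

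The abundance of each transcript was given by the authors as FPKM, the number of sequenced fragments per kilobase of transcript, scaled to the depth of the sample, with a lower and an upper confidence bound. The values are normalized for gene length and for depth within a sample, so levels of different genes can be set side by side. If the bounds reflect counting error alone, their width gives an estimate of the number of fragments behind a value. The bounds do not cover the spread between samples. The genotypes were compared in limma, using log2(FPKM + 1), for the 12985 genes that reached 1 FPKM in 2 or more samples, so that a log2 fold change understates the change of a gene with a low level. The samples held 12557 to 12942 gene symbols at an FPKM of at least 1. The FPKM of Rfx2 itself, which includes the exons that were not removed, was 36.7 and 39.8 in the mutant samples, against 123 and 89.4 in the controls. Among all genes tested, 2.52% were lower and 0.308% were higher in the mutant at an adjusted p under 0.05.

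The transcript of the initiating glycylase TTLL3 fell to a small remainder in both mutant samples. The FPKM of Ttll3 measured 1.09 in mutant 1, 1.25 in mutant 2, 20.1 in control 1 and 18.2 in control 2. The mutant samples lay close together and far below both control samples, with no overlap. The mean was 1.17 ± 0.114 (SD, n = 2) in the mutant and 19.1 ± 1.37 (SD, n = 2) in the control, so that the mutant mean was 6.12% of the control mean, a 16.3-fold lower level. The log2 fold change was -3.21 (standard error 0.21, 95% confidence interval -3.70 to -2.73, limma adjusted p = 0.000131 by the Benjamini-Hochberg method), which was larger than the spread between replicates. Ttll3 was the 50th most lowered of the 12985 genes tested, and 0.893% of these genes had a mutant mean of at most 10% of the control mean. The bounds of its FPKM were 0.825 to 1.35 in mutant 1 and 0.904 to 1.60 in mutant 2, which correspond to about 67.7 and 52.2 fragments. In the control samples they correspond to about 1192 and 1045 fragments. Ttll3 is among the genes that the study picked from its comparison of the same samples for real-time PCR, so its place in that list is no further evidence of its direction. In that assay, run on individual testes, the paper reports most of the cilia-related genes as significantly lower in the mutant. The exceptions it names do not include Ttll3.

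The primers of that real-time PCR show which part of the transcript was followed there.
Ttll3 forward: agagaagtcacagtccatctcc
Ttll3 reverse: agcctcatcgacaaagtctga
The forward primer lies in exon 7 of the consensus coding transcript, at chr6:113349716-113349737, and the reverse primer in exon 8, at chr6:113351343-113351363 on the opposite strand, both without mismatch in NCBIM37. The FPKM covers the whole gene and not this stretch alone.

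The other initiating glycylase was not called. The FPKM of Ttll8 measured 12.1 in mutant 1, 32.3 in mutant 2, 31.0 in control 1 and 29.2 in control 2. Mutant 1 was the only low sample, and mutant 2 was above both control samples, so that the groups overlapped. The mean was 22.2 ± 14.3 (SD, n = 2) in the mutant and 30.1 ± 1.26 (SD, n = 2) in the control. The log2 fold change was -0.57 (standard error 0.38, 95% confidence interval -1.45 to 0.30, limma adjusted p = 1.0), smaller than the spread between the mutant samples. The level of mutant 1 was 40.1% of the control mean, and that of mutant 2 was 107%. The values rest on about 1009 fragments in mutant 1 and 2306 to 2474 in the other samples, and the confidence bounds of mutant 1, 11.3 to 12.8, lay far from those of mutant 2, 31.0 to 33.7.

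The elongating glycylase was also low mainly in mutant 1. Ttll10 had an FPKM of 12.2 in mutant 1, 49.997 in mutant 2, 81.7 in control 1 and 52.5 in control 2. Both mutant samples were below both control samples, but mutant 2 lay just under control 2, with bounds of 48.1 to 51.9 that overlapped those of control 2, 50.7 to 54.3. The mean was 31.1 ± 26.7 (SD, n = 2) in the mutant and 67.1 ± 20.6 (SD, n = 2) in the control. The log2 fold change was -1.36 (standard error 0.54, 95% confidence interval -2.62 to -0.10), and the unadjusted p of 0.0372 became an adjusted p of 0.480 in limma, so the difference did not pass the threshold. Relative to the control mean, the level was 18.1% in mutant 1 and 74.5% in mutant 2. The values of Ttll10 also varied between the control samples, by 1.56-fold, whereas those of Ttll3 varied by 1.11-fold and those of Ttll8 by 1.06-fold.

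**Figure D1:**
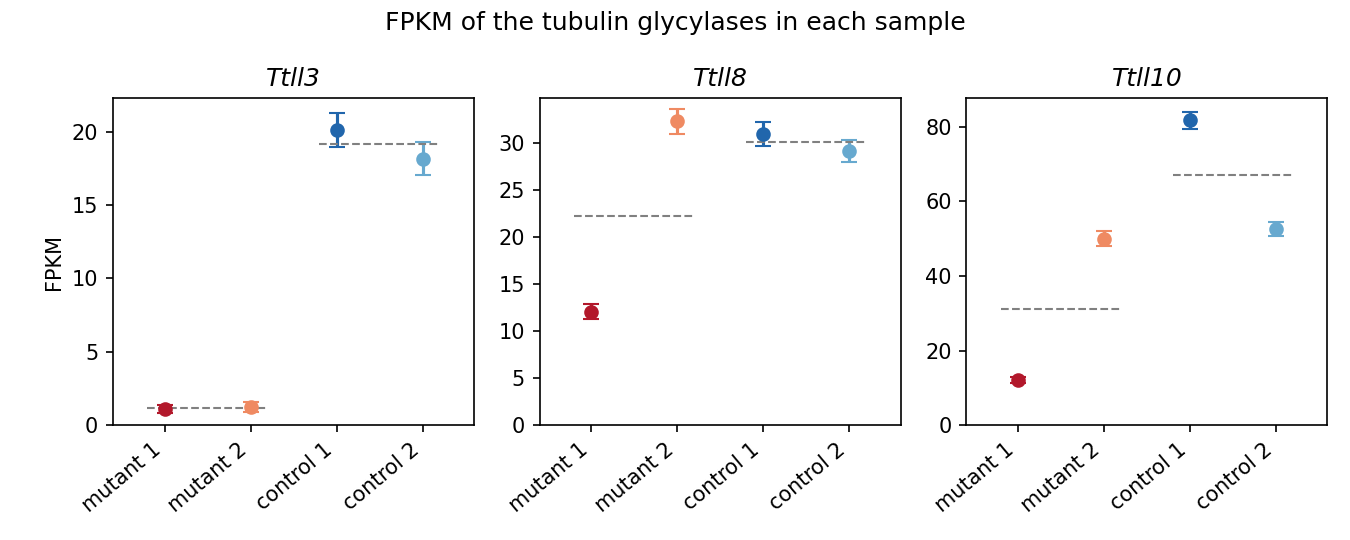
FPKM of Ttll3, Ttll8 and Ttll10 in mutant 1, mutant 2, control 1 and control 2, with a separate linear axis from 0 for each gene; bars are the confidence bounds deposited with each value and dashed lines the group means. Ttll3 was at 1.09 and 1.25 FPKM in the mutant, against 18.2 and 20.1 FPKM in the controls, while Ttll8 and Ttll10 were low in mutant 1 and at 32.3 and 49.997 FPKM in mutant 2.

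The mutant samples thus agreed on Ttll3 and differed on the other members. Mutant 2 had 2.68 times the FPKM of mutant 1 for Ttll8 and 4.11 times for Ttll10, against 1.15 times for Ttll3. Mutant 1 had at most 50% of the lowest of the other 3 samples for Ttll8 and Ttll10, a limit set after these values were seen, and 3.26% of the genes tested met it. The same limit in mutant 2 was met by 0.516% of the genes tested. Of the fits that leave out a sample, the fit without mutant 1 gave a log2 fold change of -3.16 for Ttll3, 0.10 for Ttll8 and -0.38 for Ttll10, and the fit without mutant 2 gave -3.27, -1.25 and -2.34. Ttll3 had an adjusted p under 0.05 in both of these limma fits, and Ttll8 and Ttll10 only in the fit without mutant 2. With 1 mutant sample, these fits assume that it varies like the control samples.

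Markers of spermatids differed between the mutant samples as well. Among 9 markers of elongating spermatids, the nuclear proteins Prm1, Prm2, Tnp1 and Tnp2 among them, all 9 were lowest in mutant 1, and 6 met the limit of 50% of the lowest other sample. Of all genes tested, 17.7% were lowest in mutant 1. The summed FPKM of the elongating spermatid markers measured 1228 in mutant 1, 6323 in mutant 2, 7828 in control 1 and 5314 in control 2. The paper reports that mutant spermatids stop before elongation, so this sum is no measure of elongating cells in the mutant. By RT-PCR read on agarose gels, the paper found no difference between mutant and wild type for Prm1, Prm2, Tnp1 and Tnp2. That readout is another measure than FPKM, and the paper does not state the age of the testes used for it. All 8 markers of round spermatids were lowest in mutant 1, with summed FPKM of 420 in mutant 1, 843 in mutant 2, 712 in control 1 and 629 in control 2. None of these 17 genes passed the limma test between genotypes, and 0 of them had an unadjusted p under 0.05, against 1128 of all genes tested. The median difference from the control mean on the log2(FPKM + 1) scale was -1.99 in mutant 1 and 0.12 in mutant 2 for elongating spermatid markers and -0.74 and 0.30 for round spermatid markers, against 0.10 and -0.03 over all genes tested. For Ttll8 the difference was -1.25 in mutant 1 and 0.10 in mutant 2, for Ttll10 -2.34 and -0.38, and for Ttll3 -3.27 and -3.16. In whole testes, fewer cells of a type and less RNA per cell cannot be told apart, and the part of the spermatid content in the levels of the glycylases was not tested.

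**Figure D2:**
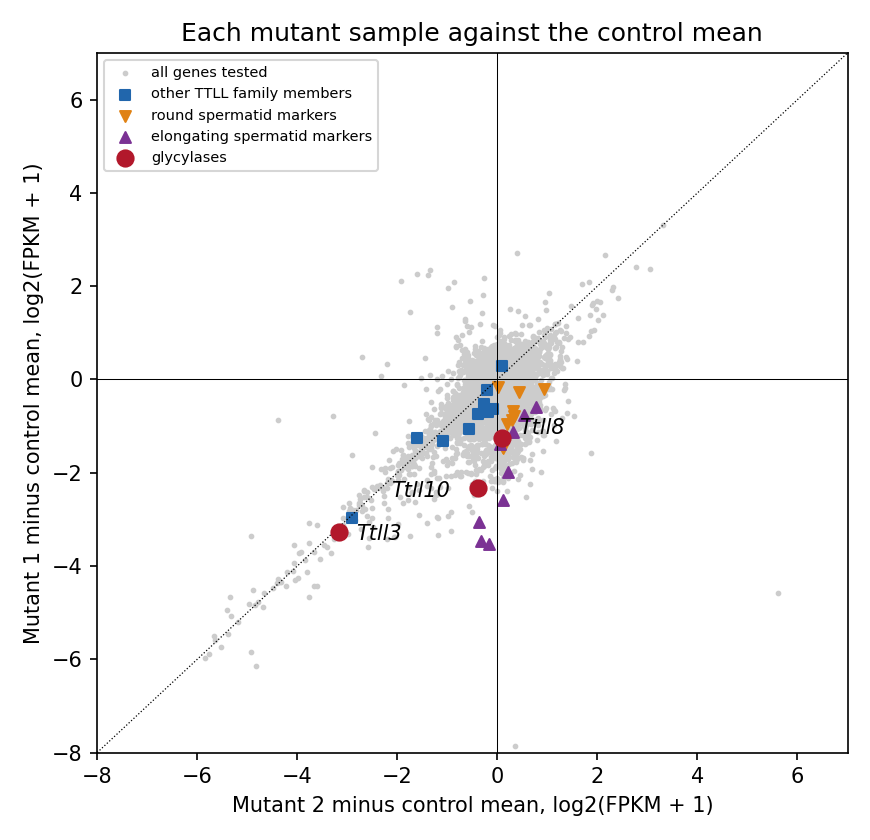
Difference of each mutant sample from the control mean on the log2(FPKM + 1) scale for all 12985 genes tested (grey), with mutant 2 on the horizontal and mutant 1 on the vertical axis; the dotted line marks equal differences. Ttll3 lies close to the line at -3.16 and -3.27, while Ttll8, at 0.10 and -1.25, and Ttll10, at -0.38 and -2.34, lie below it in the area that holds the spermatid markers.

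Markers of the other cell types that a testis sample holds fell into 2 kinds, lists close to the controls and lists that varied. The medians over the marker lists of spermatogonia, pachytene spermatocytes, Sertoli cells and peritubular myoid cells differed from the control mean by -0.05 to 0.24 in mutant 1 and by -0.04 to 0.04 in mutant 2, and none of their 26 tested genes was called in limma, with 1, the pachytene gene Pgk2, at an unadjusted p under 0.05. The medians of the Leydig cell list were 0.28 in mutant 1 and -0.18 in mutant 2, those of the macrophage list 0.11 and -0.38, and those of the 3 tested blood markers -1.58 and 0.86. These lists varied within both genotypes, with summed FPKM of 454 and 242 in the mutant against 390 and 139 in the controls for Leydig cells, of 45.0 and 29.2 against 36.1 and 46.8 for macrophages, and of 14.9 and 109 against 26.6 and 120 for blood. Of the epididymis markers, 1 of 5 passed the filter, with a difference of 1.97 in mutant 1 and -0.99 in mutant 2, and Lcn8 was listed at 0 in every sample. The sum of the epididymis list was 7.76 and 0.0796 FPKM in the mutant against 0.285 and 3.86 FPKM in the controls.

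Added up within a sample, the glycylase transcripts came to 25.3 FPKM in mutant 1, 83.6 in mutant 2, 133 in control 1 and 99.9 in control 2. The sum was lower in both mutant samples, with a difference of -1.30 in log2(sum + 1) (two-sided exact permutation test, p = 0.333). The difference was -0.46 without mutant 1 and -2.14 without mutant 2. With 2 samples against 2, 0.333 is the smallest p that this test can give. Ttll3 made up 4.30% of the sum in mutant 1, 1.496% in mutant 2, 15.1% in control 1 and 18.2% in control 2 (two-sided exact permutation test, p = 0.333). The share is independent of any scaling between samples, and both mutant samples lay below both controls. The share of Ttll8 in the sum was higher in both mutant samples, at 47.7% and 38.7% against 23.3% and 29.2% in the control samples. Its FPKM was not, at 12.1 and 32.3 in the mutant against 31.0 and 29.2 in the controls. A share also depends on the levels of the other members. The share of Ttll10 was 48.0% and 59.8% in the mutant against 61.5% and 52.6% in the controls, and the groups overlapped.

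**Figure D3:**
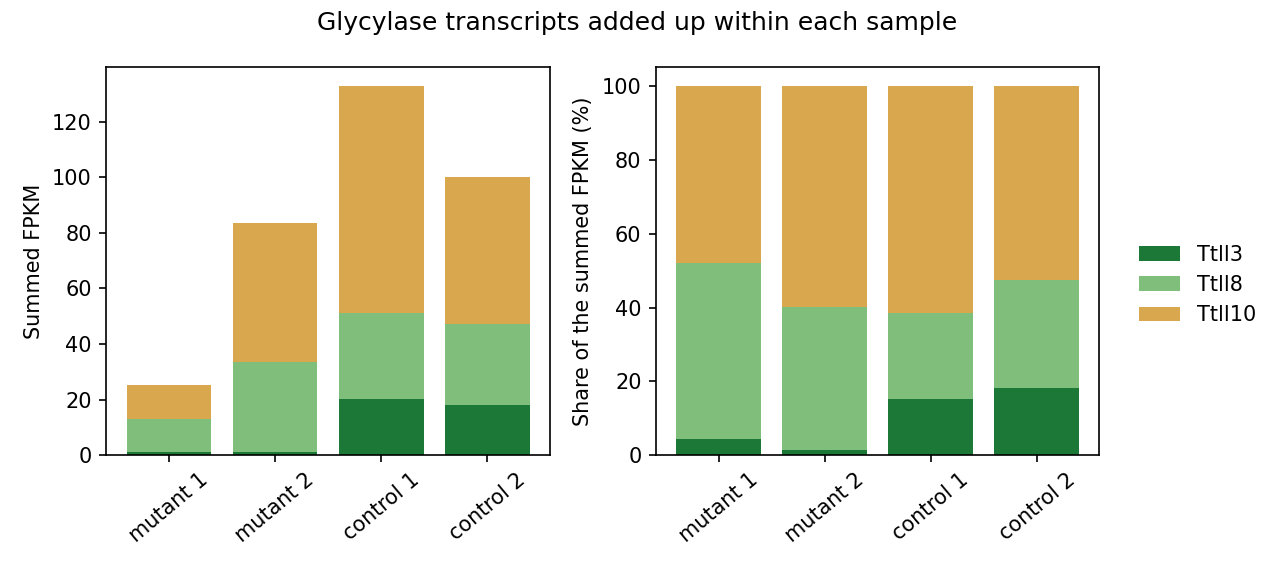
Summed FPKM of Ttll3, Ttll8 and Ttll10 in each sample on the left, and the share of each in that sum in percent on the right. The share of Ttll3 was 4.30% and 1.496% in the mutant against 15.1% and 18.2% in the controls.

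The glycylases can be set beside the other 11 genes of the TTLL family, which include the tubulin tyrosine ligase Ttl and the glutamylating enzymes. Of these, 10 passed the filter, 3 were lower at an adjusted p under 0.05 and none was higher, with a median log2 fold change of -0.50 against 0.03 over all genes tested. In 8 of the 10 both mutant samples were below both control samples, as in 15.2% of all genes tested. Mutant 1 was the lowest of the 4 samples for 8 of the 10, as for 17.7% of all genes tested. The median difference of the 10 genes from the control mean was -0.715 in mutant 1 and -0.319 in mutant 2. Over all genes tested it was 0.10 and -0.03. The number lower was 3 without mutant 1, 5 without mutant 2 and 1, Ttll6, without either control sample.
Ttll6, an elongating polyglutamylase, had FPKM of 3.58 and 3.75 in the mutant against 36.4 and 33.1 in the controls (log2 fold change -2.93, limma adjusted p = 0.000111). Ttll1, the catalytic subunit of a polyglutamylase complex, was at 5.55 and 4.09 against 16.3 and 12.997 FPKM (log2 fold change -1.43, limma adjusted p = 0.0146), a call that was lost without a filter (adjusted p = 0.0881), with a crossed replicate block, which pairs mutant 1 with control 2 and mutant 2 with control 1 (0.0528), without control 1 (0.196) and without control 2 (0.0746). For both genes, as for Ttll3, both mutant samples lay below both controls. The mutant samples lay close together for Ttll6 and further apart for Ttll1. The study had picked both genes from the same samples too. The real-time PCR of the paper also covered Ttll1 and Ttll6, and neither is among the exceptions it names. From chromatin immunoprecipitation with an RFX2 antibody, the paper reports Ttll1 as a target of RFX2. The primers it lists for that assay do not include Ttll3, Ttll8 or Ttll10. Ttll2 was at 0.489 and 0.744 FPKM in the mutant against 3.20 and 2.29 FPKM in the controls (log2 fold change -1.21, limma adjusted p = 0.0269), a call that was lost under median-ratio scaling (adjusted p = 0.0831), quantile normalization (adjusted p = 0.125) and no filter (0.120), and without control 1 (0.165) or control 2 (0.0518).
The genes without a call differed less. Ttll9 had FPKM of 27.96 and 40.1 in the mutant against 68.6 and 51.7 in the controls (limma adjusted p = 0.158), and Ttll7 had 5.33 and 7.15 against 9.88 and 9.31 (limma adjusted p = 0.453). The percent of the control mean was 74.6 for Ttll13, the most abundant of the family, 75.7 for Ttll4 and 85.7 for Ttll5, and for all 3 of these genes both mutant samples were below both control samples.

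**Figure D4:**
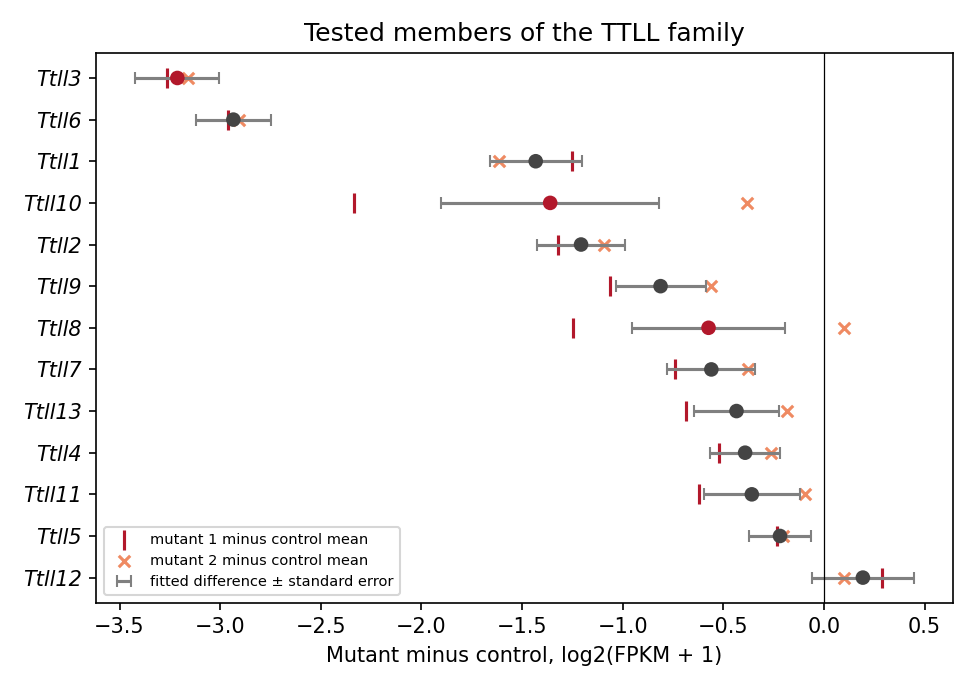
Fitted difference between mutant and control on the log2(FPKM + 1) scale, with its standard error, for the 13 tested genes of the TTLL family (red dots, glycylases; grey dots, other members), with the difference of each mutant sample from the control mean. For Ttll3 and Ttll6 both mutant samples lie close to the fitted values of -3.21 and -2.93, while for Ttll8 and Ttll10 mutant 1 and mutant 2 stand apart.

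The tubulins, the substrates of the glycylases, were not called in limma in either direction under the settings used throughout. With robust eBayes Tubb2a was called higher (adjusted p = 0.0336), without mutant 1 Tubb2a and Tubb6 were called higher, and without mutant 2 Tuba4a and Tuba8 were called lower. Of 16 alpha and beta tubulin genes, 12 passed the filter and 1, Tubb2a, had an unadjusted p under 0.05, with a median log2 fold change of 0.04 against 0.03 over all genes tested. The most abundant were Tuba3b, with FPKM of 1203 and 1158 against 1448 and 1182 in mutant and control, and Tuba3a, with 1237 and 1282 against 1333 and 1082. Tuba3a and Tuba3b are near-identical copies, so reads may be divided between them in ways that the FPKM do not show. Both mutant samples were above both control samples, as in 16.3% of all genes tested, for the beta tubulins Tubb2a, at 9.47 and 15.5 against 6.38 and 5.35 FPKM (limma adjusted p = 0.162), and Tubb2c, at 891 and 995 against 824 and 683 FPKM (limma adjusted p = 1.0), and below them for Tuba1c, at 21.4 and 20.3 against 23.6 and 23.7 FPKM (limma adjusted p = 1.0). Tuba8 and Tuba4a, with 21.5 and 8.21 FPKM in mutant 1, were the tubulins with at most 50% of the lowest other sample in mutant 1, the pattern seen for Ttll8 and Ttll10.
The proteins of other kinds that glycylases can modify showed no call in limma among 4 genes, 0 of which had an unadjusted p under 0.05, with a median log2 fold change of 0.12. The most abundant of them, the histone chaperone gene Anp32b, had FPKM of 83.0 and 63.2 in the mutant against 63.1 and 71.5 in the controls.

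Enzymes that remove glutamate side chains and the partners of the polyglutamylase complex complete the list. Of 6 deglutamylase genes, 5 passed the filter, none was called in limma under the settings used throughout, and 1, Agbl4, had an unadjusted p under 0.05. The most abundant, Agbl5, had FPKM of 202 and 212 in the mutant against 239 and 202 in the controls. Agbl4 was at 71.3 and 76.2 FPKM in the mutant against 45.7 and 37.7 FPKM in the controls, with a log2 fold change of 0.81 whose adjusted p in limma, 0.05003, lay at the threshold. Its call depended on the setting, with an adjusted p of 0.00883 with robust eBayes, 0.00824 with the replicate block, 0.0491 with the highest entry per symbol, 0.00458 without mutant 1 and 0.0107 without mutant 2. In the other fits it missed the threshold, with values up to 0.223 under median-ratio scaling and 0.339 without control 2. For Agbl2 and Agbl3 both mutant samples were slightly below both control samples, as in 15.2% of all genes tested. Their mutant means were 85.6% and 91.0% of the control mean (limma adjusted p = 0.9999 for both).
Of the 4 partners found in the files, Nicn1, a subunit of the complex that holds TTLL1, rose from 20.8 and 19.9 FPKM in the control to 39.3 and 34.6 FPKM in the mutant samples (log2 fold change 0.83, standard error 0.17, limma adjusted p = 0.0424). This call was lost, with an adjusted p between 0.0737 and 0.0949, without a filter, with median-ratio scaling, with quantile normalization, without a trend in eBayes and with the crossed replicate block, and also without control 1 (0.284) or control 2 (0.308). The partner listed as 5730494M16Rik had 33.5 and 31.3 FPKM against 36.5 and 29.4 FPKM, and the groups overlapped.

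None of the genes next to the glycylases on the chromosome that passed the filter was called in limma. Arpc4, a subunit gene of the actin-nucleating complex whose 3′ end overlaps the most upstream annotated transcript of Ttll3 on the same strand, had FPKM of 17.2 and 13.2 in the mutant against 11.4 and 13.9 in the controls. Reads of the shared stretch cannot be assigned to one of the genes from FPKM. Rpusd3, 736 bases beyond the other end of Ttll3, was at 9.32 and 8.01 against 8.11 and 6.46 FPKM, and Tada3, the nearest gene before Arpc4, at 43.9 and 42.5 against 42.2 and 32.3 FPKM. Mlc1, which ends 1466 bases upstream of Ttll8, had FPKM of 45.3 and 37.8 against 36.6 and 36.7, and Pim3 on the other side 11.0 and 8.65 against 9.59 and 9.68. For Ttll10 the nearest gene upstream, 50638 bases away, was 9430015G10Rik, with FPKM of 31.2 and 33.9 in the mutant against 29.5 and 29.9 in the controls. On its other side the nearest gene with a value, Tnfrsf18, was at 0.123 and 0 against 0 and 0.0408 FPKM. Within the annotated span of Ttll10 lie the microRNA genes Mir200a, Mir200b and Mir429, which are listed at 0 in every sample.

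The genes whose values over the 4 samples were most like those of each glycylase were found from the distance between centred log2(FPKM + 1) values. The nearest to Ttll3 were 4930444P10Rik, at a distance of 0.12, 4933406M09Rik, at 0.17, and Ndufa4l2, at 0.20. Ndufa4l2 had FPKM of 1.74 and 2.04 in the mutant against 31.9 and 24.9 in the controls, low in both mutant samples like Ttll3. The nearest to Ttll8 were Fhdc1, at a distance of 0.04, 1700019N19Rik, at 0.07, and Cypt15, at 0.08. Fhdc1 had FPKM of 1.48 and 5.32 in the mutant against 4.87 and 4.66 in the controls, low only in mutant 1 like Ttll8. The nearest to Ttll10 were 1700019M22Rik, at 0.17, 1700019D03Rik, at 0.21, and Oxct2a, a ketone body enzyme of the testis, at 0.26. Oxct2a had FPKM of 3.33 and 16.9 in the mutant against 22.6 and 14.3 in the controls. These genes were picked for their likeness over only 4 samples, so their values describe the pattern and do not test it.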

How the data were processed

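RNA from whole testes of 2 Rfx2 mutant and 2 control mice was sequenced by the study on an Illumina HiSeq 2000. Alignment by the authors was to mm9 with TopHat 2.0.6, with transcripts assembled by Cufflinks on the UCSC annotation. The values the authors deposited are FPKM per gene and sample with confidence bounds, with no scaling seen between samples. The total number of fragments is not in the files, and the fragments behind a value were estimated from its bounds, taken as 2 standard deviations of a count.

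Values of entries with the same symbol were summed, and log2(FPKM + 1) was computed, a pseudocount of 1. Genes that reached 1 FPKM in 2 or more samples were compared with limma 3.58.1 in R 4.3.3 (lmFit, eBayes with a trend), two-sided, with Benjamini-Hochberg adjustment over all genes tested. The functions were tested on simulated data. Sums and shares were compared by exact permutation tests in scipy 1.17.1. The Cuffdiff comparison of the study cannot be refitted from FPKM. The labels give replicates as biological, without saying whether they came from separate mice. The paper describes independent biological samples for each genotype and refers to the controls as 2 mice. The p-values measure the spread between these samples. The members and gene lists were chosen with earlier results of these data known. Named genes were the glycylases, Rfx2, the members of the pathway lists that passed the test, were most abundant or had groups that did not overlap, the chromosomal neighbours, and the 3 genes closest in pattern. Genes named for a low level in mutant 1, marker genes, and neighbours chosen because they had a value were added after their values were seen. Alternatives were another pseudocount, other filters, other scalings, other eBayes settings, replicate blocks, single entries and each sample left out. Start sites came from GENCODE vM1 on NCBIM37. Protein sequences were not used here.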

Additional observations from a re-analysis of the deposited data

How the results depend on the processing

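Ttll3 stayed lower with an adjusted p under 0.05 under all 14 alternatives, including each sample left out. With all 4 samples and no block, its log2 fold change ran from -3.92 with a pseudocount of 0.1 to -3.14 with quantile normalization, that of Ttll8 from -0.60 to -0.54 and that of Ttll10 from -1.40 to -1.35, with no change of call. Without a sample in turn, the log2 fold change ran from -3.28 to -3.14 for Ttll3, from -1.25 to 0.10 for Ttll8 and from -2.34 to -0.38 for Ttll10. The value of Ttll8 reversed to 0.10 without mutant 1. Ttll8 and Ttll10 passed the threshold without mutant 2, at -1.25 and -2.34. The median of the other TTLL family ran from -0.72 to -0.32 and that of the tubulins from -0.10 to 0.11 over these fits. The difference of the summed FPKM ran from -2.14 to -0.46 on the log2 scale and that of the share of Ttll3 from -15.3 to -12.2 percentage points.

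The number of lower genes, 327, was 199 without a filter and ran from 167 to 948 without a sample in turn. The number of higher genes, 40, was 17 without a filter, 67 with robust eBayes and 16 with scaling by median ratios, and ran from 13 to 162 without a sample in turn. With the replicate block of the labels these numbers were 525 and 70, and Ttll10 passed the threshold at -1.36. Across genes, samples with the same number deviated from their group means with a correlation of -0.154. This single value cannot decide whether the numbers pair the samples, and the block leaves a single residual degree of freedom. Summed marker levels changed in the same direction with the replicate number in both genotypes for blood and Leydig cells, but not for macrophages and epididymis. With the crossed replicate block, added after the data were seen, the numbers were 266 and 28. The depth may limit Ttll3 in the mutant samples, where an estimated 52.2 to 67.7 fragments stand behind a value. This estimate holds only if the bounds reflect counting error alone, which was not tested.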
